A study of Homo sapiens with 8 samples.

Results

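The 10 enzymes of de novo nucleotide synthesis were followed at the mRNA level in 2 human cholangiocarcinoma (CCA, bile duct cancer) cell lines. They were PPAT, GART, PFAS, PAICS, ADSL, ATIC and IMPDH2 for purines, and CAD, DHODH and UMPS for pyrimidines. They were taken by gene symbol from the expression tables, where they are 10 of 56269 genes, and all 10 were among the 16060 genes that were tested because they reached 1 TPM (transcript abundance scaled for gene length and library size) in at least 2 libraries. The established lines SNU1079 and SSP25 were each treated for 48 h with the BET protein degrader ARV825 at 40 nM (BETp), the mTOR kinase inhibitor AZD8055 at 50 nM (mTORi), both drugs together (BETp + mTORi), or 0.01% DMSO (vehicle). Both lines carry the genotype label wildtype, although the study reports IDH1 and ARID1A mutations in SNU1079. The label of the combination gives no doses. Each line and treatment had 1 RNA-seq library, 8 in all, so the 2 lines serve as the replicates of a treatment. No p-value below measures the spread between repeat cultures of a line. Those for treatments set against each other measure how far the responses of these 2 lines differed. For effects averaged over the other drug, the spread also takes in departures from additivity of the 2 drugs. For differences between the lines it takes in those departures alone. All draw in part on the spread of other genes.

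Cells build purines by stepwise assembly of the ring on phosphoribosyl pyrophosphate (PRPP), ending in inosine monophosphate, which is then turned into adenine and guanine nucleotides. Pyrimidines are made by first closing the ring and then attaching it to PRPP. The transcription factor MYC is known to drive many of these genes, and BET proteins help to transcribe MYC itself in many cancer cells. The kinase complex mTORC1 is known to feed both routes through CAD and through ATF4, a factor that raises the folate enzymes that donate one-carbon units to the purine ring.

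Over all genes the libraries totalled 998559 to 999362 TPM, which keeps no sequencing depth, and 13308 to 14526 genes reached 1 TPM. The mitochondrial genome took 19.2%, 17.1% and 15.3% of the TPM in SNU1079 under BETp + mTORi, BETp and mTORi, against 14.4% under vehicle, and 10.1%, 7.22% and 8.64% in SSP25, against 5.99%. Bile duct keratins KRT7, KRT8, KRT18 and KRT19 were at 292.7 TPM or more in all 8 libraries, while ALB and APOA1 of hepatocytes and PTPRC and CD3E of leukocytes were at 0.24 TPM or less in all. Other genes of those marker lists were present: SERPINA1 was at 7.64 to 41.8 TPM and TTR at 0.28 to 2.23 TPM in SNU1079, and CD68 was at 76.4 to 209.5 TPM in all 8 libraries. COL1A1 was at 272 to 1003 TPM in SNU1079 with COL1A2 and DCN at 0.12 TPM or less.

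Among the genes, PPAT and PAICS lie head to head. In the GENCODE 44 annotation on GRCh37, PPAT is on the minus strand at chr4:57259528-57301781 and PAICS on the plus strand at chr4:57301907-57330744, so that 125 bases lie between their starts. The stretch between the start sites is shown because a single short region separates these genes. It is the plus strand of chr4:57301782-57301906, and capitals mark its 3 GC boxes (GGGCGG, searched on both strands).
PPAT-PAICS: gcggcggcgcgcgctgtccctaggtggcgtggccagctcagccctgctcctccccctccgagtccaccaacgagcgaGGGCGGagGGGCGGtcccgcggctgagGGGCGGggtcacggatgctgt
Of the 10 genes, 4 had a protein-coding gene starting on the other strand within 1000 bases (40%), against 13.3% of 20176 protein-coding genes. PPAT and PAICS are both in this count, each as the neighbour of the other. The others are GART, which overlaps the start of SON by 454 bases, and PFAS, which overlaps that of CTC1 by 441 bases. IMPDH2 also overlaps a protein-coding gene on its own strand, over 5103 of its 5123 bases, and ADSL does so over 43935 of 44003. Strand cannot separate reads of these same-strand overlaps. Whether reads were counted by strand is not given in the sources used here, so reads of the overlaps with SON and CTC1 cannot be told apart either.

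RefSeq promoter windows (GRCh38.p14, 250 bases before to 50 after a start) were matched for 8 of the 10 enzymes, all but IMPDH2 and ADSL. The E-box CACGTG, the letters that MYC and related factors are known to bind, was present in windows of 4 of the 8, namely PPAT, PAICS, ATIC and DHODH, against 8.77% of 27305 genes with a window. PPAT and PAICS hold the same copy. The copies are shown with 12 bases on each side, plus strand of GRCh37, with the E-box in capitals, because MYC is among the regulators measured here.
PPAT and PAICS, chr4:57301946-57301975: ctgtatttgctgCACGTGgaaatctccgtt
ATIC, chr2:216176724-216176753: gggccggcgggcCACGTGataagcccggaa
ATIC, chr2:216176799-216176828: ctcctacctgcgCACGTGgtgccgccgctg
DHODH, chr16:72042472-72042501: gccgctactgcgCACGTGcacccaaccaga
The GC box was in windows of 7 of 8 (48.3% of all genes), CCAAT in 3 (39.7%), TATAAA in 1 (14%), and the cAMP response element TGACGTCA in 1, UMPS (2.25%). The amino acid response element TGATGNAAT, a form of the site of ATF4, was in none of the 8 (1.22%). Other forms of that site were not searched. Genes with several start sites have several windows, and a match describes letters only.

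To see what the combination did to the purine route, each enzyme was compared between BETp + mTORi and vehicle. Levels of 9 of the 10 enzymes were lower under BETp + mTORi than under vehicle in both lines, where 51% of all genes tested were. None of the 10 passed limma's test at an adjusted p of 0.05 (1.81% of all genes did), and 6 had an unadjusted p under 0.05 (25.8% of all genes). The exception was IMPDH2, which was higher in SNU1079. The median change of the 10 was -0.35 on the log2(TPM + 1) scale, against -0.19 for all genes tested. Without the SSP25 vehicle library it was -0.21, against -0.17, with 7 of the 10 below the median of all genes.

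**Figure D1:**
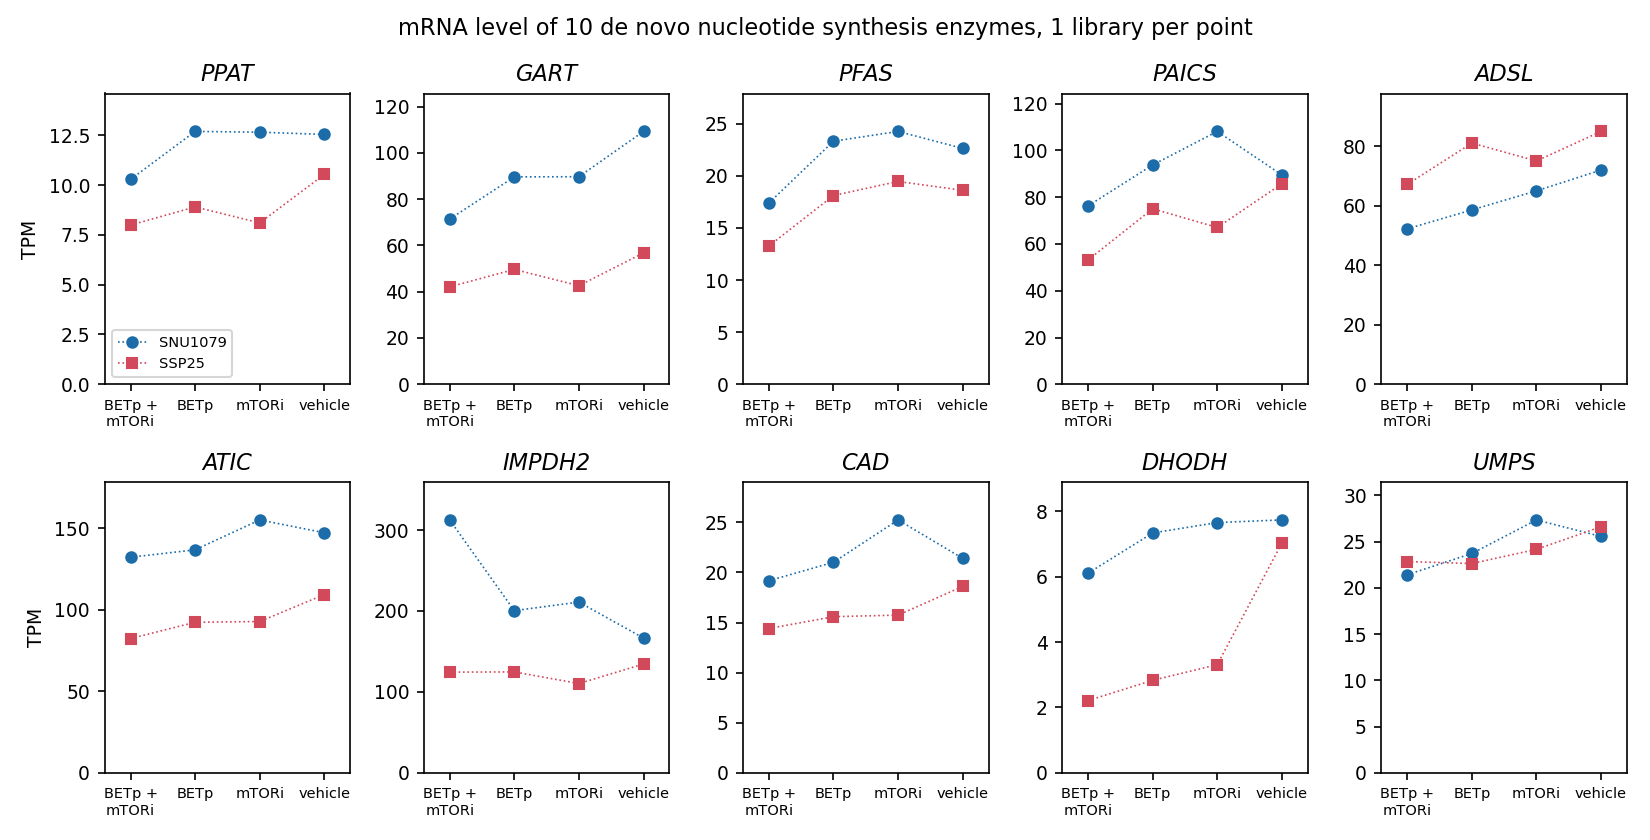
TPM (y axis, from 0) of each of the 10 enzymes in the 4 treatments (x axis), with 1 point per library, SNU1079 as circles and SSP25 as squares; dotted lines only join points of a line. BETp + mTORi gave the lowest value of 9 enzymes in SNU1079 and of 8 in SSP25, and IMPDH2 in SNU1079 is the one enzyme highest under BETp + mTORi. This order was not counted over all genes, of which 51% were lower under BETp + mTORi than under vehicle in both lines.

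PPAT, the amidotransferase that commits PRPP to purines, had 10.3 TPM under BETp + mTORi, 12.7 under BETp, 12.7 under mTORi and 12.5 under vehicle in SNU1079. In SSP25 it had 7.99, 8.90 and 8.10 TPM under BETp + mTORi, BETp and mTORi, against 10.5 under vehicle. The single drugs were thus level with vehicle in SNU1079 and below it in SSP25. Its change under BETp + mTORi was -0.31 ± 0.15 (log2, SE, n = 2 lines, adjusted p = 0.236 by limma).

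GART, a single protein for the second, the third and the fifth step, had the smallest p of the 10. It stood at 71.4 TPM under BETp + mTORi, 89.6 under BETp and 89.7 under mTORi in SNU1079, against 109 TPM under vehicle. SSP25 had 42.1, 49.7 and 42.6 TPM under BETp + mTORi, BETp and mTORi, against 56.8 under vehicle. Every treated library was below the vehicle library of its line. The change of -0.52 ± 0.11 under BETp + mTORi had an adjusted p of 0.0626 by limma. It passed in 1 of 15 alternatives, at 0.0492 when only genes at 5 TPM or more were tested, and was -0.29 after quantile normalization (adjusted p = 0.239).

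PFAS, the glutamine-dependent synthase of the fourth step, had single-drug levels near vehicle. SNU1079 had 17.4 TPM under BETp + mTORi, 23.3 under BETp, 24.3 under mTORi and 22.6 under vehicle, and SSP25 had 13.3, 18.1 and 19.5 TPM under BETp + mTORi, BETp and mTORi, against 18.6 under vehicle. The single-drug libraries lay at 97.3% to 107% of vehicle, and the combination at 76.8% in SNU1079 and 71.3% in SSP25. The change was -0.41 ± 0.12 for BETp + mTORi (adjusted p = 0.0955, limma), 0.00 ± 0.12 for BETp and 0.08 ± 0.12 for mTORi.

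PAICS, which performs the sixth and the seventh step, had 76.3 TPM under BETp + mTORi, 93.8 under BETp, 108 under mTORi and 89.5 under vehicle in SNU1079. Its SSP25 levels were 53.2, 75.1 and 67.1 TPM under BETp + mTORi, BETp and mTORi, against 85.7 under vehicle. The lines thus went opposite ways under mTORi, with SNU1079 above vehicle and SSP25 below it. Despite the shared start region, PAICS was 7.42 times PPAT under BETp + mTORi, 7.39 under BETp and 8.55 under mTORi in SNU1079, against 7.14 under vehicle, and 6.65, 8.43 and 8.28 times in SSP25, against 8.14. The change under BETp + mTORi was -0.45 ± 0.15 (adjusted p = 0.129, limma).

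ADSL, the lyase that acts both in ring assembly and in AMP formation, had 52.3, 58.6 and 65.1 TPM under BETp + mTORi, BETp and mTORi in SNU1079, against 72.0 under vehicle. SSP25 had 67.2, 81.1 and 75.1 TPM, against 85.0 under vehicle. As for GART, every treated library was below its vehicle, and the change under BETp + mTORi was -0.39 ± 0.11 (adjusted p = 0.0897, limma).

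ATIC, which performs the final steps to inosine monophosphate, varied least of all in SNU1079, where its highest level was 1.17 times its lowest. It had 132, 137 and 155 TPM there under BETp + mTORi, BETp and mTORi, against 147 under vehicle, and 82.4, 92.4 and 92.8 TPM in SSP25, against 109. All 3 treatments were below vehicle in SSP25, and mTORi was above it in SNU1079. The change under BETp + mTORi was -0.28 ± 0.11 (adjusted p = 0.164, limma).

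IMPDH2, the rate-limiting enzyme of guanine nucleotide synthesis, was the most abundant of the 10 and the one enzyme above vehicle in SNU1079 under every treatment. In SNU1079 it had 313 TPM under BETp + mTORi, 200.4 under BETp, 211 under mTORi and 167 under vehicle, so every treated library was above vehicle and the combination was 188% of it. In SSP25 it had 124, 125 and 110.3 TPM under BETp + mTORi, BETp and mTORi, against 134 under vehicle. The within-line changes under BETp + mTORi were 0.90 in SNU1079 and -0.11 in SSP25, and after quantile normalization 1.10 and 0.10. Their mean of 0.40 ± 0.21 had an adjusted p of 0.285 by limma and became 0.06 without the SNU1079 combination library and 0.06 without the SNU1079 vehicle library. It was 0.73 without the SSP25 vehicle library, 0.74 without the SSP25 combination library and 0.60 after quantile normalization.

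IMPDH2 thus made up 43.5% of the summed TPM of the 10 enzymes in SNU1079 under BETp + mTORi, 30.03% under BETp and 29.1% under mTORi, against 24.7% under vehicle. In SSP25 its share was 28.9%, 25.4% and 24.05%, against 24.3%. Its paralog IMPDH1, which does the same reaction and was singled out after its values were seen, ran the other way in SNU1079, with 10.9, 17.5 and 18.6 TPM under BETp + mTORi, BETp and mTORi, against 22.1 under vehicle. It had 73.8, 94.2 and 90.5 TPM in SSP25, against 100.1 under vehicle. IMPDH1 was thus below vehicle in all 6 treated libraries (-0.70 ± 0.15 under BETp + mTORi, adjusted p = 0.0591, limma). The IMPDH2 level was 28.7 times that of IMPDH1 under BETp + mTORi in SNU1079, against 7.55 times under vehicle, and 1.69 times in SSP25, against 1.34 times.

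The pyrimidine enzymes were then read in the same way. CAD, the multifunctional protein that starts the route and is a known target of mTOR signaling at the protein level, had 19.2 TPM under BETp + mTORi, 21.0 under BETp, 25.2 under mTORi and 21.4 under vehicle in SNU1079. In SSP25 it had 14.4, 15.6 and 15.7 TPM under BETp + mTORi, BETp and mTORi, against 18.6 under vehicle. All treatments were below vehicle in SSP25, whereas mTORi was highest in SNU1079, and the change under BETp + mTORi was -0.25 ± 0.14 (adjusted p = 0.312, limma).

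DHODH, the mitochondrial dehydrogenase of the fourth step, was the least abundant of the 10 and had the largest change. SNU1079 had 6.11, 7.34 and 7.66 TPM under BETp + mTORi, BETp and mTORi, against 7.74 under vehicle. SSP25 had 2.21, 2.83 and 3.31 TPM, against 7.03 under vehicle. The combination therefore left 31.4% of the vehicle level in SSP25 and 78.9% in SNU1079, and in SSP25 each drug alone was already under 50% of vehicle (40.3% for BETp and 47.1% for mTORi). The mean change was -0.81 ± 0.27 (adjusted p = 0.127, limma). It was -0.33 without the SSP25 vehicle library, -1.30 without the SNU1079 vehicle library and -0.56 after quantile normalization.

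UMPS, which completes uridine monophosphate, varied by 1.28 times between its highest and lowest level in SNU1079 and by 1.18 times in SSP25. It had 21.4, 23.7 and 27.3 TPM under BETp + mTORi, BETp and mTORi in SNU1079, against 25.6 under vehicle, and 22.8, 22.6 and 24.2 TPM in SSP25, against 26.6. The lines had overlapping levels, and the change under BETp + mTORi was -0.23 ± 0.12 (adjusted p = 0.283, limma).

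**Figure D2:**
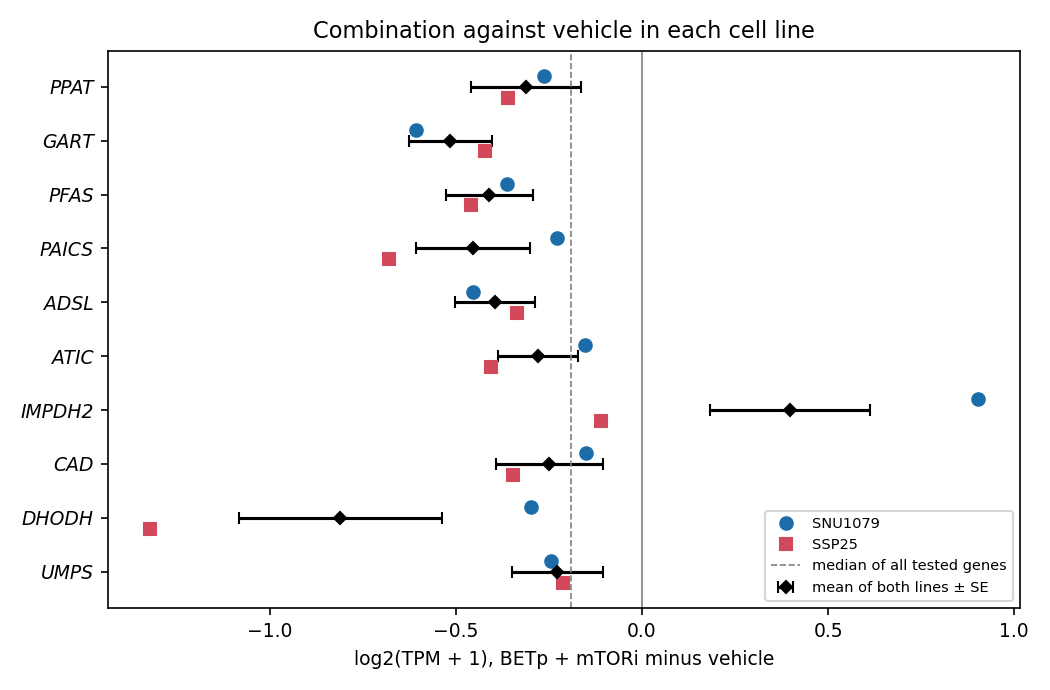
Change of each enzyme in log2(TPM + 1), BETp + mTORi minus vehicle (x axis), in SNU1079 (circles) and SSP25 (squares), with the mean of both lines and its SE from limma (diamonds); the dashed line is the median of all tested genes, -0.19. All values of single lines but that of IMPDH2 in SNU1079 lie left of 0, and DHODH and IMPDH2 show the widest gap between the lines.

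The count of enzymes lower in both lines depended on the scale. After quantile normalization, which sets the distribution of the 8 libraries equal and the median change of all genes to 0.00, 5 of the 10 were lower in both lines (27.8% of all genes). These were PPAT, GART, PFAS, ADSL and DHODH. PAICS, ATIC and CAD were then level with or above vehicle in SNU1079 (0.00, 0.06 and 0.07), and UMPS in SSP25 (0.03). The mean changes of PPAT, ATIC, CAD and UMPS shrank to -0.08, -0.06, -0.01 and -0.01, and those of PFAS, PAICS and ADSL to -0.18, -0.22 and -0.17. The median change of the 10 became -0.12, with 9 of 10 below the median of all genes on both scales. Rescaling without the mitochondrial genome kept 9 of 10 lower in both lines (43.6% of all genes).

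Single drugs were asked next. Under BETp alone, 6 of the 10 were lower than vehicle in both lines (38.1% of all genes). None passed limma's test (0.00623% of all genes) and none had an unadjusted p under 0.05 (8.9% of all genes). The median was -0.05 in SNU1079 and -0.20 in SSP25. DHODH had the largest change at -0.57 ± 0.27 (adjusted p = 0.603), followed by GART at -0.24 ± 0.11 (adjusted p = 0.600).

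Under mTORi alone the lines diverged. Of the 10 enzymes, 3 were lower than vehicle in both lines, namely GART, ADSL and DHODH (41.5% of all genes), and PFAS was higher in both (12.2% of all genes). The median of the 10 was 0.08 in SNU1079 and -0.26 in SSP25, against -0.10 and -0.11 over all genes. Of the 4 treatments, mTORi gave the highest level of 5 enzymes in SNU1079, whereas vehicle gave the highest level of 9 in SSP25. This order was not counted over all genes. None passed limma's test (0.0125% of all genes). GART alone had an unadjusted p under 0.05 (10.3% of all genes), with -0.34 ± 0.11 (adjusted p = 0.417). Cell cycle markers moved with this: the median of 11 of 11 measured (MKI67, TOP2A, CCNB1, CDK1, PCNA and MCM2 to MCM7) was 0.44 in SNU1079 and -0.46 in SSP25 under mTORi. Their summed level in SNU1079 was 814 TPM under BETp + mTORi, 882 under BETp and 1373 under mTORi, against 923 under vehicle. In SSP25 it was 417, 647 and 639 TPM, against 866 under vehicle. Their part in the levels of the enzymes was not tested.

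The combination was also set against each drug. Relative to BETp, 8 of 10 enzymes were lower under BETp + mTORi in both lines (45.1% of all genes), none passed limma's test (0% of all genes), and GART, PFAS and PAICS had an unadjusted p under 0.05 (11.5% of all genes), with changes of -0.28, -0.41 and -0.39. Relative to mTORi, 9 of 10 were lower in both lines (38.6% of all genes), again none passed (0.0125% of all genes), and PFAS (-0.49 ± 0.12, adjusted p = 0.211) and PAICS (-0.41 ± 0.15, adjusted p = 0.328) had an unadjusted p under 0.05 (13.4% of all genes). IMPDH2 was higher under BETp + mTORi than under mTORi in both lines (20% of all genes), by 0.56 in SNU1079 and 0.17 in SSP25. These comparisons share libraries with those against vehicle.

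Effects averaged over the other drug use all 8 libraries. The BETp effect had a median of -0.20 over the 10 enzymes, against -0.08 over all genes, and 9 of 10 were below 0 in both lines (43.1% of all genes). None passed limma's test (1.82% of all genes), and 5 had an unadjusted p under 0.05 (22.8% of all genes). These were ADSL (-0.21 ± 0.07, adjusted p = 0.137), GART (-0.20 ± 0.07, adjusted p = 0.155), ATIC (-0.19 ± 0.07), DHODH (-0.46 ± 0.18) and UMPS (-0.19 ± 0.08). IMPDH2 was above 0 in both lines (20.1% of all genes), by 0.42 in SNU1079 and 0.03 in SSP25.

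For the averaged mTORi effect the median of the 10 was -0.18, against -0.11 over all genes, and 7 were below 0 in both lines (47.6% of all genes). That gap was nearly lost in other settings: the medians were -0.04 and 0.00 after quantile normalization, -0.12 and -0.11 without the SSP25 combination library, and -0.13 and -0.12 without the SSP25 BETp library. None passed limma's test (1.05% of all genes). GART (-0.31 ± 0.07, adjusted p = 0.0713) and ADSL (-0.19 ± 0.07, adjusted p = 0.164) had an unadjusted p under 0.05 (22% of all genes). GART was alike in both lines, with -0.30 in SNU1079 and -0.32 in SSP25. ATIC, CAD and UMPS were nearest to 0, at -0.09, -0.06 and -0.04, and turned above 0 after quantile normalization.

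**Figure D3:**
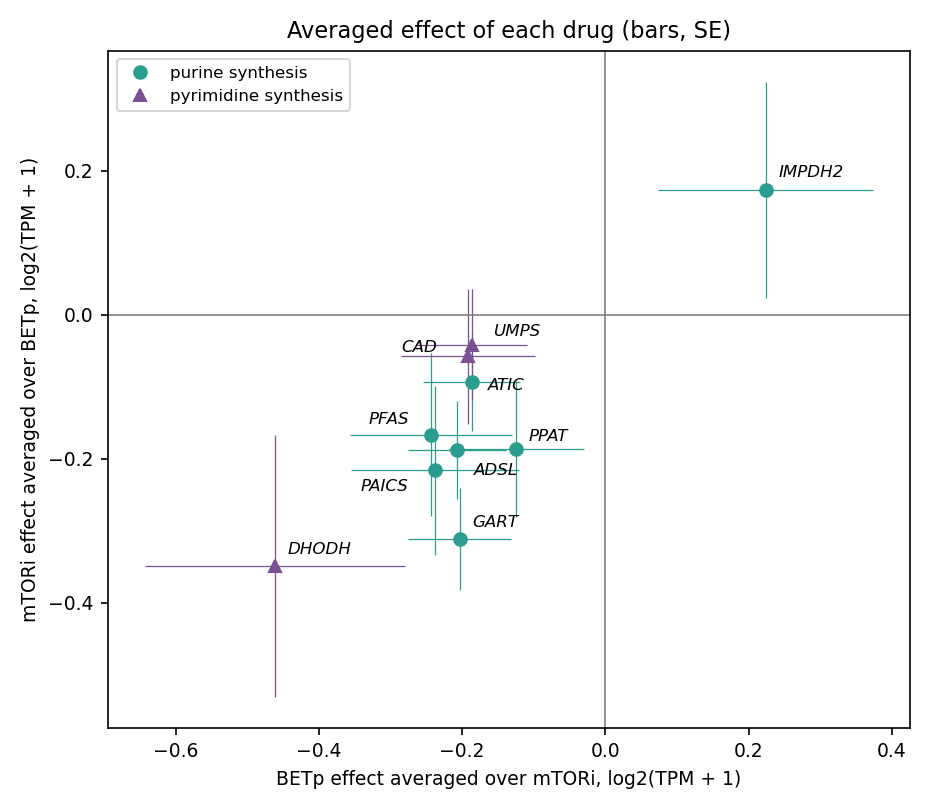
Averaged BETp effect (x axis) against averaged mTORi effect (y axis) of each enzyme in log2(TPM + 1), with SE bars from limma; circles are purine and triangles pyrimidine enzymes. Of the 10 points, 9 lie below 0 on both axes and IMPDH2 lies above 0 on both, with none past an adjusted p of 0.05.

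Whether the drugs together did more than the sum of each was tested as a departure from additivity. PFAS stood at -0.49 ± 0.16, with -0.50 in SNU1079 and -0.48 in SSP25, its single-drug levels being near vehicle and its combination level below it. Its unadjusted p was under 0.05 (2% of all genes), and its adjusted p by limma was 1.00. None of the 10 passed (0% of all genes). PAICS had -0.35 ± 0.22, IMPDH2 0.29 ± 0.30 and DHODH 0.21 ± 0.38, and the other 6 lay between -0.12 and 0.07. These means joined lines that often went opposite ways. DHODH had -0.22 in SNU1079 and 0.64 in SSP25, CAD -0.35 and 0.12, and PPAT -0.29 and 0.20. Of the 10, 3 were below 0 in both lines and 1 above 0 in both (4053 and 3625 of 16060 genes). The median was -0.23 in SNU1079 and 0.13 in SSP25, against -0.04 and 0.02 over all genes.

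The difference between the lines was tested for the averaged effects, as SSP25 minus SNU1079. For mTORi, IMPDH2 differed most, at -0.63 ± 0.15 (adjusted p = 0.245, limma), with an averaged effect of -0.14 in SSP25 and 0.49 in SNU1079. DHODH followed at -0.45 ± 0.28 and PAICS at -0.41 ± 0.20. All 10 differences were below 0, with GART and PFAS near it at -0.02 and -0.03. The share of all genes below 0 was not counted. GART, PFAS, UMPS and ADSL ranked at percentiles 44, 43, 41 and 37 of all genes, and the others lower, down to 4.61 for IMPDH2. The median of the 10 was -0.16, against 0.03 over all genes. None passed (0% of all genes), and IMPDH2 alone had an unadjusted p under 0.05 (14.2% of all genes). For BETp, DHODH had -0.57 ± 0.28 (adjusted p = 0.482) and IMPDH2 -0.38 ± 0.15 (adjusted p = 0.411). None passed (0.00623% of all genes) and none had an unadjusted p under 0.05 (12.4% of all genes). The difference between the lines under the combination itself was not tested, since each line has 1 library per treatment.

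Other genes of nucleotide metabolism were counted from 8 lists of 65 genes. In the folate one-carbon supply, 2 of 6 genes were called lower under BETp + mTORi at an adjusted p under 0.05 by limma (1.52% of all genes). None was called higher, and the list median was -0.74. MTHFD2, the mitochondrial folate dehydrogenase, had 45.9, 70.0 and 87.9 TPM under BETp + mTORi, BETp and mTORi in SNU1079, against 115 under vehicle, and 48.8, 91.6 and 66.1 TPM in SSP25, against 123. Its change was -1.31 (adjusted p = 0.0348, limma). SHMT2, which takes the one-carbon unit from serine, had 78.3, 115 and 112 TPM in SNU1079 in the same order, against 144 under vehicle, and 104, 169 and 137 TPM in SSP25, against 240.4. It changed by -1.04 (adjusted p = 0.0315, limma). All 6 genes of the list were lower in both lines, and both named genes also fell in the averaged BETp effect and in the averaged mTORi effect. This is the pathway that the study drew from these same libraries, so its direction is no independent evidence.

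Among 11 genes of nucleotide branches and phosphorylation, 9 were lower under BETp + mTORi in both lines (51% of all genes), with a median of -0.61. At an adjusted p under 0.05 by limma, 3 were called lower (1.52% of all genes) and none higher. CTPS1, which makes CTP from UTP, had 20.1, 27.4 and 32.1 TPM under BETp + mTORi, BETp and mTORi in SNU1079, against 34.0 under vehicle, and 27.5, 34.4 and 42.2 TPM in SSP25, against 49.4 (-0.78, adjusted p = 0.0393, limma). The nucleoside diphosphate kinases NME1 (-0.80, adjusted p = 0.0335) and NME2 (-0.45, adjusted p = 0.0489) are near-identical neighbours whose reads may have been split, and are uncertain. ADSS, which directs inosine monophosphate to AMP, fell in the averaged BETp effect (-0.54, adjusted p = 0.0458).

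Of 13 salvage genes, which recycle bases and nucleosides, 8 were lower under BETp + mTORi in both lines (51% of all genes), with a median of -0.28. At an adjusted p under 0.05 by limma, 1 was called lower (1.52% of all genes) and none higher. It was TK2, the mitochondrial thymidine kinase, with 13.1, 13.5 and 22.8 TPM under BETp + mTORi, BETp and mTORi in SNU1079, against 21.6 under vehicle, and 16.2, 16.8 and 26.1 TPM in SSP25, against 28.3. Its averaged effect was -0.69 for BETp (adjusted p = 0.00889) and -0.03 for mTORi (adjusted p = 0.838). UPP1, uridine phosphorylase, fell in the averaged BETp effect (-0.49, adjusted p = 0.0369).

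No gene passed among the 4 of PRPP supply (median -0.47 under BETp + mTORi), 8 of deoxynucleotide synthesis (-0.36), 8 measured of 10 for breakdown (-0.40) or 11 cell cycle markers (-0.61). At an unadjusted p under 0.05 by limma there were 3, 1, 3 and 8, all lower, where 22.5% of all genes were. In the first, PRPSAP2 had an averaged mTORi effect of -0.39 and PRPS2 and PRPSAP1 averaged BETp effects of -0.42 and -0.35. TYMS, thymidylate synthase, had an averaged BETp effect of -0.49. DPYD, which degrades pyrimidines, had an averaged mTORi effect of -0.41, and NT5E, the surface nucleotidase, 0.36. Averaged BETp effects were -0.46 for RRM1, -0.37 for AMPD3, -0.32 for NT5C2, -0.66 for CCNB1 and -0.56 for TOP2A. Averaged mTORi effects were -0.34 for SAMHD1, -0.44 for MKI67 and -0.32 for MCM6.

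Of the regulators, MYC had 124, 98.1 and 149 TPM under BETp + mTORi, BETp and mTORi in SNU1079, against 121 under vehicle, and 43.8, 31.6 and 44.3 TPM in SSP25, against 41.8. It was lowest under BETp in both lines and level with vehicle under the combination (0.06). Its averaged effects were -0.24 ± 0.08 for BETp (adjusted p = 0.126) and 0.30 ± 0.08 for mTORi (adjusted p = 0.0840, limma). ATF4 had 255, 241 and 352 TPM in SNU1079, against 332 under vehicle, and 314, 417 and 358 TPM in SSP25, against 473. The combination thus left 76.6% of its vehicle level in SNU1079 and 66.3% in SSP25. Its mean change there was -0.49, with an unadjusted p under 0.05 by limma (22.5% of all genes were so and lower). The averaged effects of ATF4 were -0.32 for BETp and -0.16 for mTORi. Neither MYC nor ATF4 passed the adjusted test, and the study describes both as unaffected by any treatment.

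**Figure D4:**
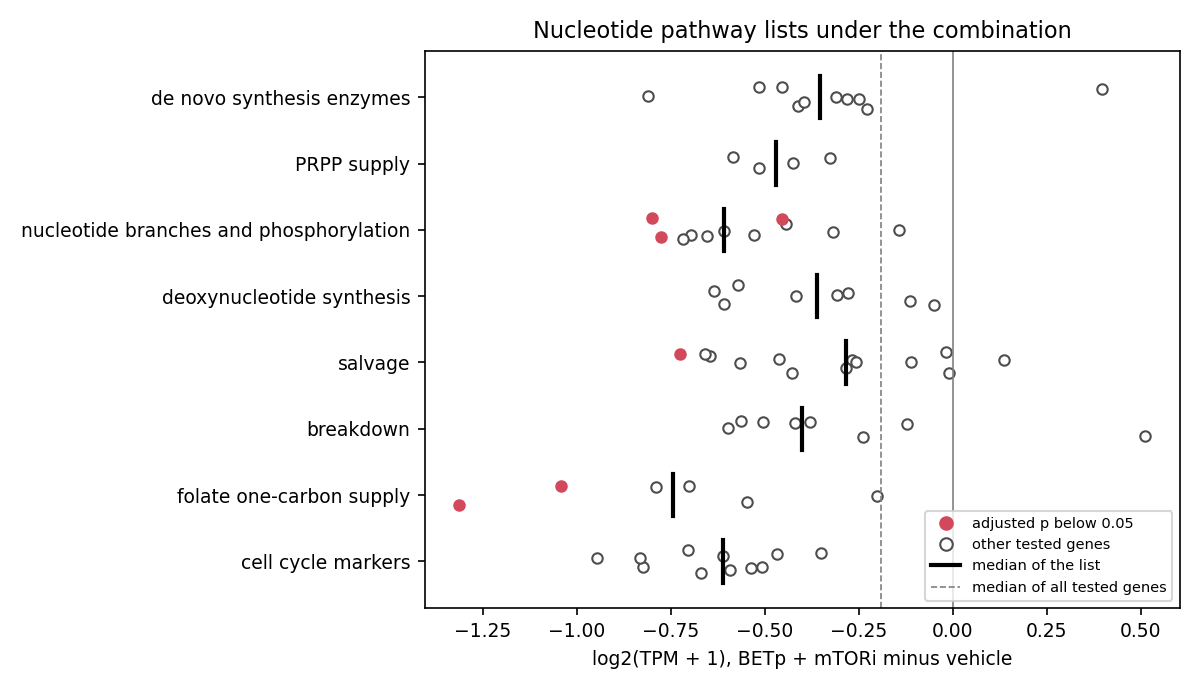
Change in log2(TPM + 1), BETp + mTORi minus vehicle (x axis), of each tested gene of 8 groups (y axis); filled points have an adjusted p under 0.05 by limma, thick bars are group medians and the dashed line is the median of all tested genes, -0.19. The 6 filled points are in the branch, salvage and folate groups, and none is among the de novo synthesis enzymes.

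Over the combination and both averaged effects, the lists held 17 calls. Each kept its direction under all alternatives tried, and all 17 passed when genes at 5 TPM or more were tested, but 1 remained without a filter, 3 after quantile normalization, and 0 to 4 with each of the 8 libraries left out in turn. In the averaged BETp effect TK2 remained in 7 of the 8 fits that left out a library, with adjusted p between 0.0305 and 0.0514.

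The genes most like the median pattern of the 10 enzymes, by the root mean square difference over 6 within-line changes from vehicle among 10633 genes at a mean of 5 TPM or more, were VDAC3 (0.0356), RPP38 (0.0357), HNRNPK (0.0362), NUP205 (0.0439) and CCT3 (0.0454). Of the enzymes themselves, ATIC (0.0516) and PPAT (0.0530) lay nearest to that median, while IMPDH2 (0.514) and DHODH (0.585) lay farthest. The summed level of the 9 enzymes other than IMPDH2 was 407, 467 and 515 TPM under BETp + mTORi, BETp and mTORi in SNU1079, against 508 under vehicle, and 306, 366 and 348 TPM in SSP25, against 418. With IMPDH2 included it was 719, 667 and 726 TPM in SNU1079, against 675 under vehicle, and 430, 491 and 459 TPM in SSP25, against 553.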

How the data were processed

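The deposited tables, 1 per cell line, hold TPM per gene symbol that the authors made from strand-marked, paired-end libraries on genome build GRCh37, per the labels. The authors' processing notes list DESeq2 and edgeR, count models that do not apply to TPM, which keep no depth. Aligner and annotation stand as not given in the sources used here. The tables were normalized separately, and levels set across lines are descriptive. TPM were analysed as log2(TPM + 1) with limma 3.58.1 in R 4.3.3 (two-sided, eBayes with trend, Benjamini-Hochberg adjustment over the 16060 genes that reached 1 TPM in 2 or more libraries). Treatment with cell line as the block left 3 residual degrees of freedom, averaged effects 4, and line differences 2. Deviations from the treatment means correlated at 0.911 to 0.936 between libraries of the same line. Each such mean holds 1 library per line, so this shows only that the lines differed in level. No 2 libraries held identical values. The model fit was tested on simulated data with planted log2 changes of 1 and 2 under BETp + mTORi. The mean changes of all 10 enzymes there were smaller, so that test does not cover changes of their size. Named genes were all 10 enzymes, called genes of the lists (at most 4 a list), otherwise those with the largest averaged effects at a mean of 5 TPM or more. The enzymes, lists and tests were chosen with earlier results of these data known. Alternatives changed the pseudocount to 0.1, dropped the filter or raised it to 5 TPM, normalized by quantiles, rescaled without mitochondrial genes, used robust eBayes, dropped the block, or left out each library. Some genes that the rule names are not reported here.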

Additional observations from a re-analysis of the deposited data

Results flagged for a closer look

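IMPDH2 differed between the lines under BETp + mTORi: its change from vehicle was 0.904 in SNU1079 and -0.1105 in SSP25 on the log2(TPM + 1) scale, and after quantile normalization 1.10 and 0.10. The values rest on 1 library per line and treatment, and this difference was not tested. An annotated gene on the same strand overlaps nearly all of IMPDH2, and strand cannot separate its reads.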

How the results depend on the processing

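Fits with cell line as the block and without the replicate block gave the same count of enzymes called, 0 of 10 in each of the 8 comparisons that could be fitted without it, and the pairing by line mattered for the other genes, where 0 of 17 calls remained without the block. Of the 10 comparisons, 1 count of enzymes called changed under an alternative: with a filter at 5 TPM, 1 enzyme (GART, adjusted p = 0.0492) passed under BETp + mTORi. Leaving out each library in turn kept the count at 0 in all comparisons. Quantile normalization turned the averaged mTORi effect of ATIC to 0.0435, CAD to 0.0875 and UMPS to 0.0986; no other change of an enzyme under BETp + mTORi or in the averaged effects changed sign under the alternatives. The median change of the 10 enzymes under BETp + mTORi was -0.21 without the SSP25 vehicle library, against -0.17 for all genes. Counts over all genes were less stable: 291 under BETp + mTORi became 86 with a pseudocount of 0.1, 2 without a filter, 657 at 5 TPM, 21 after quantile normalization, 89 without mitochondrial genes, 9 with robust eBayes, 0 without the block and 0 to 145 with each of the 8 libraries left out in turn. The averaged BETp count of 292 ranged from 0 to 476, and the averaged mTORi count of 168 from 0 to 483. TPM keep no depth, so no counting error can be given for low genes such as DHODH.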
